A study of Mus musculus with 103 samples.

Results

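The 2 arrays titled as mouse embryo total RNA were compared with the 14 arrays of 7 other mouse tissues, out of 103 arrays in the series. The members were taken from the titles, not from measured values. One embryo array carried cRNA made from 1 ug with Affymetrix's one-cycle kit, and the other carried cDNA made from 500 pg by the BIIB protocol of Biogen Idec, both tagged with biotin. Brain, heart, kidney, liver, lung, ovary and spleen each had the same pair of arrays, so the tissue panel held 16 arrays. All 16 RNAs were described as an Ambion tissue panel, with no treatment, and the labels name no strain, age, sex, embryonic stage or number of animals. Each tissue was a single RNA source measured by a pair of protocols, so p-values measure the spread of tissues across protocols and say nothing about variation between embryos. The series as a whole tested how well small amounts of RNA can be profiled.

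A whole embryo is a mixture of nearly every organ at an early stage, so its RNA holds transcripts of cartilage, muscle, skin, nerve, liver and blood at once. In the mouse, the yolk sac and fetal liver secrete plasma proteins. The yolk sac makes the first red cells, whose globin chains differ from those of the adult. Adult lymphocytes and the antigen-presenting molecules they read mature late, around and after birth.

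Expression was given as MAS5 signal, a brightness per probe set on a linear scale that cannot be set against that of another probe set. Differences are on the scale of log2(signal + pseudocount), embryo minus the mean of the other 7 tissues, ± SE from limma with the protocol as a covariate and 2-sided p-values adjusted by Benjamini-Hochberg. The pseudocount, 5% of the arrays' common mean, understates the differences of dim genes. Genes are called, and said to rise or fall, when the adjusted p is under 0.05 and the groups are 2-fold or more apart. Probe sets with a mean signal under 500 were left out of this test. A gene dim elsewhere passed only if it was bright in the embryo, so counts over gene lists are also given over all members on the array, with no filter. In bulk RNA, fewer cells of a type and less RNA per cell cannot be told apart.

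The embryo labels were checked on the markers Afp, Hbb-y, Col2a1 and Igf2, whose summed signal was 420521 (one-cycle) and 372429 (BIIB) in the embryo and at most 6663 on any other array. The labels of brain and liver went against theirs. The arrays labelled brain had the highest liver marker sums, 1146457 and 2383705, and those labelled liver had the highest brain marker sums, 215214 and 466569. The arrays labelled brain also held pancreatic enzyme transcripts, with Ctrb1, a digestive protease, at 162406 by one-cycle, and so did the spleen arrays, at 109480 and 78039 (one-cycle and BIIB). These 4 arrays are called by their labels here. Swapping the pair of names would leave the embryo difference as it is, since it uses the mean of all 7 tissues. Each tissue's one-cycle array correlated best with the BIIB array of the same label, with r across probe sets from 0.742 (embryo) to 0.819 (brain). The median signal was 591.9 to 973.7 on one-cycle arrays (embryo 956.4) and 432 to 624.2 on BIIB arrays (embryo 619.8). The 3' to 5' ratio of the Actb control probe sets was 1.23 to 1.8 with one-cycle (embryo 1.25) and 8.17 to 25.2 with BIIB (embryo 8.17).

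**Figure D1:**
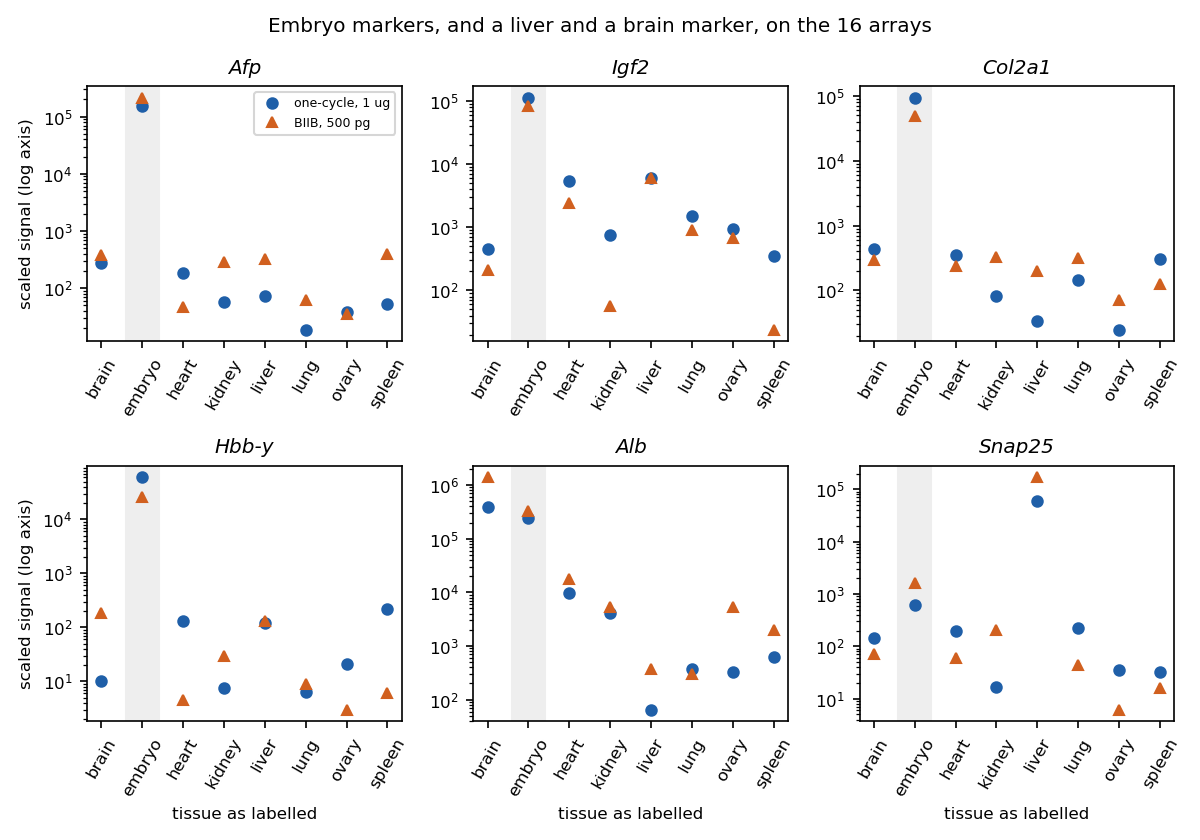
Scaled signal (log axis) of Afp, Igf2, Col2a1, Hbb-y, Alb and Snap25 on the 16 arrays by tissue as labelled, 1 point per array with the protocol marked, and the embryo shaded. Both embryo arrays lie above all 14 others for the first 4 genes, Alb is highest on the arrays labelled brain, and Snap25 is highest on the arrays labelled liver.

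Against the mean of the 7 tissues, transcripts of structural tissues, plasma proteins and dividing cells were higher in the embryo. Those of antigen presentation, antibodies and the interferon response were lower. Single tissues differed, and plasma protein genes had a median of -1.77 against the arrays labelled brain. Replication and mitosis genes had a median of -1.22 against spleen. None of the 7 tissues is skin, skeletal muscle, cartilage, bone or eye. Being higher than each of the 7 therefore does not show genes of those tissues to be particular to the embryo. Of 15180 probe sets tested, 1566 rose (10.3%) and 867 fell (5.71%), with a median difference of 0.04 over all tested. With no filter, 1787 of 22626 rose (7.9%) and 828 fell (3.66%), with a median of 0.01. Against single tissues with no filter, 16.1% rose and 8.3% fell (labelled brain), 9.53% and 7.11% (heart), and 11.3% and 8.02% (kidney). The arrays labelled liver gave 11.9% and 9.76%, lung 7.52% and 6.42%, ovary 5.53% and 4.24%, and spleen 11.6% and 7.29%. Counts of list members against a single tissue are to be read beside these shares. A stricter count, called against each of the 7 tissues in turn, held 169 higher (1.11%) and 41 lower (0.27%), or 237 (1.05%) and 31 (0.137%) with no filter. Both embryo arrays lay above all 14 others for 284 probe sets (1.87%) and below all 14 for 122 (0.804%). The 169 probe sets stood for 131 genes at their brightest probe set, of which 76 were in the gene lists described here, and the 41 stood for 23 genes, of which 10 were. Without the 4 arrays labelled brain and liver, 1393 rose and 1007 fell, and 1202 and 701 of the original calls were made again. In a fit that took the other 7 tissues as 1 group, so that the spread also held the differences between them, 154 rose and 20 fell, and the genes named below that lost their call there are given with each group.

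The calls were made on the mean of both protocols, so the direction of a call within each protocol is close to fixed by the call. Among the 15180 probe sets tested, the embryo was first of the 8 tissues on both protocols for 561, with 433 of them among the higher calls. It was last for 372, with 235 of them among the lower calls. Across the 15180 probe sets, the embryo difference on one-cycle and on BIIB arrays correlated at r = 0.756 and rho = 0.607. These are arrays of 1 RNA and probe sets are not independent, so the correlation is a description. Of 150 called genes with further probe sets tested, all of them went the same way for 147.

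Afp, the alpha-fetoprotein secreted by yolk sac and fetal liver, gave the largest rise among the non-overlapping calls with 1 gene symbol. Its signal was 153098 and 215494 in the embryo (one-cycle and BIIB, the order used throughout) and 18.7, 66.8 and 391 at the lowest, median and highest of the other 14 arrays. The groups were far apart, and the difference was 9.49 ± 0.37 (limma adjusted p = 4.98e-08). Igf2, an imprinted fetal growth factor, had 113705 and 82451 against 23.8, 829 and 6057, the highest being the one-cycle array labelled liver, and differed by 6.54 ± 0.37 (adjusted p = 2.75e-07). All 4 embryo markers were higher than each of the 7 tissues.

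The embryonic globins separated the embryo from every other tissue, and adult red cell genes did not. Hbb-y, the beta-like chain of the first red cells, had 59759 and 25789 in the embryo and 3, 15.5 and 215 elsewhere (7.81 ± 0.41, adjusted p = 1.95e-07). Hba-x, the embryonic alpha-like chain, had 8389 and 680 against at most 191 (3.93 ± 0.51). Hbb-bh1, another early beta-like chain, had 2420 and 4892 against at most 528 (3.64 ± 0.57). All 3 of these globins on the array rose against each of the 7 tissues, and their probe sets may also bind related globin transcripts. The 250 bases before the RefSeq start of Afp (GRCm38.p6, chr5:90490464-90490713, plus strand) and Hbb-y (chr7:103853208-103853457, minus strand) are shown because these genes are 2 of the 4 embryo markers. They run 5′ to 3′ and capitals mark CCAAT, or ATTGG where it lies on the other strand, found 98 and 83 bases before the start.
Afp: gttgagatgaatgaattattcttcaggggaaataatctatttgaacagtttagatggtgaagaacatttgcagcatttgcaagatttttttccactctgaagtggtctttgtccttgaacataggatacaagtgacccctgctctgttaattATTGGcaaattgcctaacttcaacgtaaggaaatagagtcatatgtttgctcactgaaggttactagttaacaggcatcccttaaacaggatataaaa
Hbb-y: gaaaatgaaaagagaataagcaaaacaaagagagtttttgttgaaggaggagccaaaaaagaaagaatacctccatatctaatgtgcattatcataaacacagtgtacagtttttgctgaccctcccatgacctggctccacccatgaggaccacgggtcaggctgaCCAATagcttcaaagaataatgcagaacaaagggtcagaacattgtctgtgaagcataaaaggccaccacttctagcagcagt
CCAAT on either strand is in 33.8% of all 32851 such windows, so its presence in both is a description only.

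Of 19 adult globin and red cell genes on the array, 18 passed the filter, of which 9 rose and 0 fell, and with no filter 9 rose with a median of 1.14. Alas2, which starts heme synthesis in red cells, had 39303 and 24108 in the embryo, and 15.2, 1718 and 93002 elsewhere (3.28 ± 0.54, adjusted p = 0.00119). Klf1, a red cell transcription factor, had 14735 and 7138 against 10.7, 322 and 47473 (3.62 ± 0.28), and Slc4a1, the red cell anion exchanger, 16853 and 6802 against 14.2, 323 and 73998 (3.74 ± 0.35). In each case the highest array was spleen by one-cycle, above both embryo arrays. Against spleen, 0 of the 19 rose and 12 fell (median -1.93), beside 11.6% and 7.29% of all 22626 probe sets with no filter. Against kidney 12 rose and 0 fell, beside 11.3% and 8.02% of all probe sets. Gata1, an earlier regulator, was not called (1.04 ± 0.4, adjusted p = 0.0931). The adult globin Hba-a2 had 170 and 4488 and was not called (0.23 ± 0.5). Its probe set ran from 64.4 to 557 on the other one-cycle arrays, dim signals whose order is uncertain, and from 1632 to 9925 on the other BIIB arrays. Without the one-cycle embryo array 5 rose. With the other tissues as 1 group none of the 18 that passed was called, Alas2, Klf1 and Slc4a1 included. AGATAA, the letters bound by GATA factors, was on either strand of 6 of the 14 windows of the 13 red cell genes with one (42.9%), beside 9.99% of all windows.

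Plasma proteins of the fetal liver and yolk sac were high in the embryo but higher still on the arrays labelled brain. Of 22 such genes, all of which passed the filter, 21 rose and 0 fell against the mean of the 7 tissues (median 4.72). Alb, serum albumin, had 241336 and 334223 in the embryo, 65.2, 3053 and 1383210 elsewhere (6.2 ± 0.52, adjusted p = 7.22e-06). Ahsg, fetuin A, had 85761 and 193610 against 23.1, 550 and 605740 (6.65 ± 0.32), and the fibrinogen chain Fgb had 47846 and 175018 against 10.7, 263 and 674407 (6.68 ± 0.38). The highest value of all 3 genes was the BIIB array labelled brain. Apoa1, an HDL apolipoprotein, differed by 6.85 ± 0.37 and Serpina6, which carries glucocorticoids in plasma, by 5.14 ± 0.49. Apoe was the member without a call (-0.23 ± 0.26, adjusted p = 0.591).

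The 7 single tissues gave different pictures for the plasma proteins. Against the arrays labelled brain 4 of the 22 rose and 14 fell (median -1.77), beside 16.1% and 8.3% of all probe sets with no filter. Against heart 21 rose and 0 fell (median 5.62), beside 9.53% and 7.11%, and against the arrays labelled liver 19 rose and 1 fell (median 6.83), beside 11.9% and 9.76%. Afp alone was higher than each of the 7. When the other tissues were taken as 1 group, 1 of the 22 was called, and Alb, Ahsg, Fgb, Apoa1 and Serpina6 lost their calls.

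Genes of adult liver metabolism fell against the arrays labelled brain. Of 54 genes, all passed, 19 rose and 5 fell against the mean (18 and 4 with no filter, median 0.79), but against the arrays labelled brain 0 rose and 53 fell (median -4.65). Cps1, which starts the urea cycle, had 16277 and 13775 in the embryo, 4, 207 and 114523 elsewhere (4.53 ± 0.45, adjusted p = 2.71e-05). Bhmt, an enzyme of methionine synthesis, had 22822 and 84724 against 34.8, 513 and 485746 (4.47 ± 0.66). A pair of drug and sterol cytochromes went the other way. Cyp2b10 had 189 and 10.2 against 154, 469 and 33580, the highest in lung (-2.98 ± 0.47). Cyp7b1 had 624 and 227 against 58.7, 1110 and 34574, the highest in kidney (-1.69 ± 0.37). Both calls were lost without the BIIB embryo array (adjusted p = 0.0532 and 0.274), and that of Cyp7b1 also without kidney (0.0976) or without the 4 arrays labelled brain and liver (0.0525). The 5 lower calls became 0 without the BIIB embryo array, 2 without the one-cycle one, 2 without the arrays labelled brain, 1 without all 4 arrays labelled brain and liver and 2 without a protocol term. None of these 4 genes was called with the other tissues as 1 group, where the list had 0 calls.

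Cartilage and bone matrix genes rose in the embryo against the mean of the 7 tissues. Of 29 cartilage genes on the array, 19 passed the filter, of which 14 rose and 0 fell, and with no filter 23 of the 29 rose and 0 fell, with a median of 2.83. Col2a1, the main cartilage collagen, had 93958 and 48695 in the embryo and 24.7, 219 and 438 elsewhere (7.78 ± 0.39, adjusted p = 1.54e-07). Col9a1, a collagen on the surface of type II fibrils, had 18494 and 3848 against at most 235 (5.29 ± 0.38). Col11a1, which sits in their core, had 17454 and 8940 against at most 2894 (5.36 ± 0.38). The groups did not overlap for any of the 3.

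The proteoglycans of cartilage followed the collagens. Acan, aggrecan, had 4674 and 4632 in the embryo and at most 573 elsewhere (4.22 ± 0.35), and Epyc, epiphycan of the growth plate, had 3965 and 3389 against at most 523 (3.98 ± 0.34). Against each of the 7 tissues 8 of the 19 that passed were higher, and 12 of all 29 with no filter. Of the 14 calls against the mean, 8 were left without either embryo array in turn, and the same number was called with the other tissues as 1 group. Papss2, which makes the sulfate donor, had no call (-0.6 ± 0.33) and was brightest in kidney at 17675. Of 16 bone genes, 10 passed, of which 7 rose and 0 fell, and with no filter 8 rose (median 1.16), while taking the other tissues as 1 group left 2 called. Ibsp, bone sialoprotein, had 7685 and 7105 against at most 414 (4.69 ± 0.35, adjusted p = 2.83e-06), while Alpl, the alkaline phosphatase of bone and kidney, had 2285 and 1115 against up to 16047 and no call (0.19 ± 0.32).

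Connective tissue matrix rose broadly but with less separation from lung and ovary. Of 57 matrix genes on the array, 55 passed, of which 49 rose and 0 fell, and with no filter 50 rose, with a median of 2.03. Col1a1, the main chain of type I collagen, had 145137 and 43353 in the embryo and 325, 947 and 12346 elsewhere (5.53 ± 0.44, adjusted p = 4.36e-06). Fbn2, the fibrillin of early microfibrils, had 11580 and 20951 against at most 3765 (5.39 ± 0.43). Col3a1 had 171991 and 99619 against up to 80731 in lung (3.18 ± 0.28), and Col1a2 208168 and 241280 against up to 75758 (3.47 ± 0.21). Postn, periostin, had 56912 and 49712 against up to 31298 (4.2 ± 0.35). Lung gave the highest other array of Col1a1, Col3a1, Col1a2 and Postn, below both embryo arrays each time.

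Against lung 19 of the 57 matrix genes rose and 3 fell (median 0.94), beside 7.52% and 6.42% of all probe sets, and against ovary 21 rose and 2 fell (median 0.99), beside 5.53% and 4.24%. Against the arrays labelled brain 52 rose and 1 fell (median 3.4). Higher than each tissue were 10 of the 55 that passed, or 9 of all 57 with no filter. Taking the other tissues as 1 group left 4 of the 55 called, and Col1a2, Col3a1 and Postn were not (adjusted p = 0.169, 0.477 and 0.351).

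Skeletal muscle transcripts were among the largest rises. Of 58 developing muscle genes on the array, 44 passed the filter, of which 43 rose and 0 fell, and with no filter 50 of the 58 rose, with a median of 3.76. Myh3, the embryonic myosin heavy chain, had 33497 and 171306 in the embryo and 9.6, 171 and 1478 elsewhere (7.84 ± 0.37, adjusted p = 1.28e-07). Myh8, the perinatal chain, had 32674 and 123620 against at most 7574 (7.75 ± 0.52), and the adult fast chain Myh2 had 2204 and 10041 against at most 387 (4.61 ± 0.48). The fast troponins Tnnc2, Tnnt3 and Tnni2 differed by 8.58 ± 0.45, 7.96 ± 0.49 and 7.68 ± 0.34, and the light chains Myl1 and Mylpf by 7.99 ± 0.31 and 7.34 ± 0.5. All 8 were higher than each of the 7 tissues, none of which is skeletal muscle, with no overlap between the arrays.

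The regulator of this program was measured too. Myog, myogenin, the factor that drives muscle cells to fuse, had 5128 and 3922 in the embryo and at most 470 elsewhere (4.61 ± 0.29, adjusted p = 6.78e-07). Myod1, which commits cells to muscle, missed the filter and had 2066 and 3877 against at most 478 (3.72 with no filter, adjusted p = 0.000201). Atp2a1, the calcium pump of fast muscle, had 54953 and 10459 against at most 1671 (5.71 ± 0.35).

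Heart set the limit on the muscle genes that both muscles share. Actc1, the cardiac actin that early skeletal muscle also uses, had 159164 and 114128 in the embryo but 486114 on the BIIB heart array (6.43 ± 0.38 against the mean). Ckm, the muscle creatine kinase, had 110196 and 99149 against up to 168652 in heart (6.4 ± 0.4), whereas Acta1, the skeletal actin, had 210448 and 146635 against up to 86061 (7 ± 0.35). Against heart 27 of the 58 muscle genes rose and 11 fell (median 0.92), beside 9.53% and 7.11% of all probe sets. Against spleen 50 rose and 0 fell, beside 11.6% and 7.29%. A single group of other tissues left 16 of the 44 that passed called, and Actc1, Ckm and Acta1 were not (adjusted p = 0.684, 0.402 and 0.115). Higher than each tissue were 19 of the 44, or 24 of all 58 with no filter.

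The windows before Mylpf (chr7:127211358-127211607, plus strand) and Acta1 (chr8:123894776-123895025, minus strand) are shown as 2 muscle genes that moved together. Capitals mark CAGCTG, an E-box of the kind that myogenic factors bind, 51 and 221 bases before the start.
Mylpf: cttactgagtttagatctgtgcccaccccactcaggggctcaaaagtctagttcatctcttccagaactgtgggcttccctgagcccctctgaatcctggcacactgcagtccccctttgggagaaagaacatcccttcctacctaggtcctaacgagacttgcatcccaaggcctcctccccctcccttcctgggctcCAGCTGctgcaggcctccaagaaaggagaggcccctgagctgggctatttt
Acta1: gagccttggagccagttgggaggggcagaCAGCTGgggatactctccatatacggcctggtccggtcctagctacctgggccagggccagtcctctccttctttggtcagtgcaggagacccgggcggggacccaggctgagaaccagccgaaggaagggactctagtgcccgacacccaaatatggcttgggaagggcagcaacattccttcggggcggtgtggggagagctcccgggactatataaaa
CAGCTG, which reads the same on both strands, was in 18 of 50 windows of the 44 muscle genes with one (36%), beside 13% of all windows. CTA and TAG with any 4 bases between, a pattern looser than the MEF2 site, was in 3 of 50 (6%), beside 3.2%. The motifs were chosen with their matches already seen, and a match is not a measured binding site.

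Heart genes were higher in the embryo than in most tissues and lower than in heart itself. Of 33 heart genes, 30 passed, of which 19 rose and 1 fell, the same counts as with no filter (median 1.9). Against heart 1 rose and 27 fell (median -3.31). Sln, the sarcolipin of atrial and fetal muscle, had 29507 and 7265 in the embryo and up to 28158 in heart (4.61 ± 0.44, adjusted p = 1.91e-05). Several risers, Sln and Actc1 among them, are also genes of skeletal muscle, and the part of each muscle in the rises was not tested. Myh6, Nppa, Tnni3 and Myl7 were far below heart in the embryo but above the median of the other arrays. Myh6, the adult cardiac myosin, had 2194 and 13907 against up to 973544 (1.99 ± 0.75, adjusted p = 0.0866). The other tested probe set of Myh6 went the opposite way, at -1.26. Nppa, the atrial peptide, had 2245 and 1076 against up to 187436 (1 ± 0.38, adjusted p = 0.0933), and Tnni3, the adult cardiac troponin I, 1731 and 588 against up to 205518 (-0.06 ± 0.34). Without the 2 heart arrays Myh6, Nppa and Tnni3 were higher at their brightest probe sets, at 3.39, 2.27 and 1.16 (adjusted p = 0.0101, 0.00257 and 0.0388). Tnni3 was instead lower without the 4 arrays labelled brain and liver (-1.23, adjusted p = 0.0442), so its sign depended on the tissues in the mean. Myl7, the atrial light chain, rose by 1.9 ± 0.33, a call lost without the 4 arrays labelled brain and liver (0.92, adjusted p = 0.113) or with a pseudocount of 500 (0.9). The calcium channel Ryr2 fell (-1.38 ± 0.31), lost without the BIIB embryo array (-0.96, adjusted p = 0.234) and without heart (-0.52, adjusted p = 0.276), among other settings. Sln, Myl7 and Ryr2 were not called with the other tissues as 1 group, where the list had 1 call.

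Epidermal genes rose as a large set. Of 53 skin genes on the array, 41 passed the filter, of which 34 rose and 0 fell, and with no filter 40 rose with a median of 2.43. Lor, loricrin of the cornified envelope, had 87160 and 129195 in the embryo and 6.9, 31.3 and 3152 elsewhere (8.73 ± 0.49, adjusted p = 2.7e-07). The other tested probe sets of Lor differed by less, at 4.37 and 5.12. Krt10 had 147300 and 118219 against at most 1557 (7.47 ± 0.34) and its partner Krt1 had 118766 and 16809 against at most 1085 (7.5 ± 0.51). These are keratins of the upper, differentiating layers.

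The keratins of the basal layer rose with them. Krt5 had 17839 and 63955 in the embryo and at most 1166 elsewhere (6.96 ± 0.72), Krt14 had 20093 and 24999 against at most 851 (6.52 ± 0.35) and Krt15 had 16124 and 40074 against at most 484 (6.89 ± 0.3). Krt13, a keratin of mouth and gullet lining, had 8065 and 12869 against at most 411 (5.64 ± 0.35). Trp63, the master regulator of stratified epithelium, had 2121 and 4596 against at most 521 (3.26 ± 0.43, adjusted p = 0.000258). Among genes of late differentiation, Krtdap, Asprv1, Calm4 and Crct1 differed by 7.21 ± 0.38, 6.88 ± 0.47, 7.47 ± 0.35 and 6.83 ± 0.36, and Ivl, involucrin, by 3.9 ± 0.51. Every epidermal gene named here was higher than each of the 7 tissues, none of which is skin.

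Higher than each tissue were 18 of the 41 skin genes that passed, or 20 of all 53 with no filter. The 34 calls against the mean were 20 without the BIIB embryo array and 18 with the other tissues as 1 group. Against spleen 42 rose and 0 fell (median 3.5), and against lung, which has its own epithelium, 28 rose and 3 fell (median 2.18). The probe sets of Lor and Krt14 can bind related transcripts. Lens genes rose as well. Of 22 lens and eye genes, 6 passed and all 6 rose, of which 3 did so without either embryo array in turn, and with no filter 11 of the 22 rose and 0 fell (median 1.47). The crystallins Cryaa, Cryba1 and Cryga, structural proteins of the lens, had 5458 and 8635, 6879 and 8938, and 4577 and 2950 in the embryo. Their highest other arrays were 395, 359 and 341, and they differed by 4.84 ± 0.34, 5.13 ± 0.33 and 4.2 ± 0.37.

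**Figure D2:**
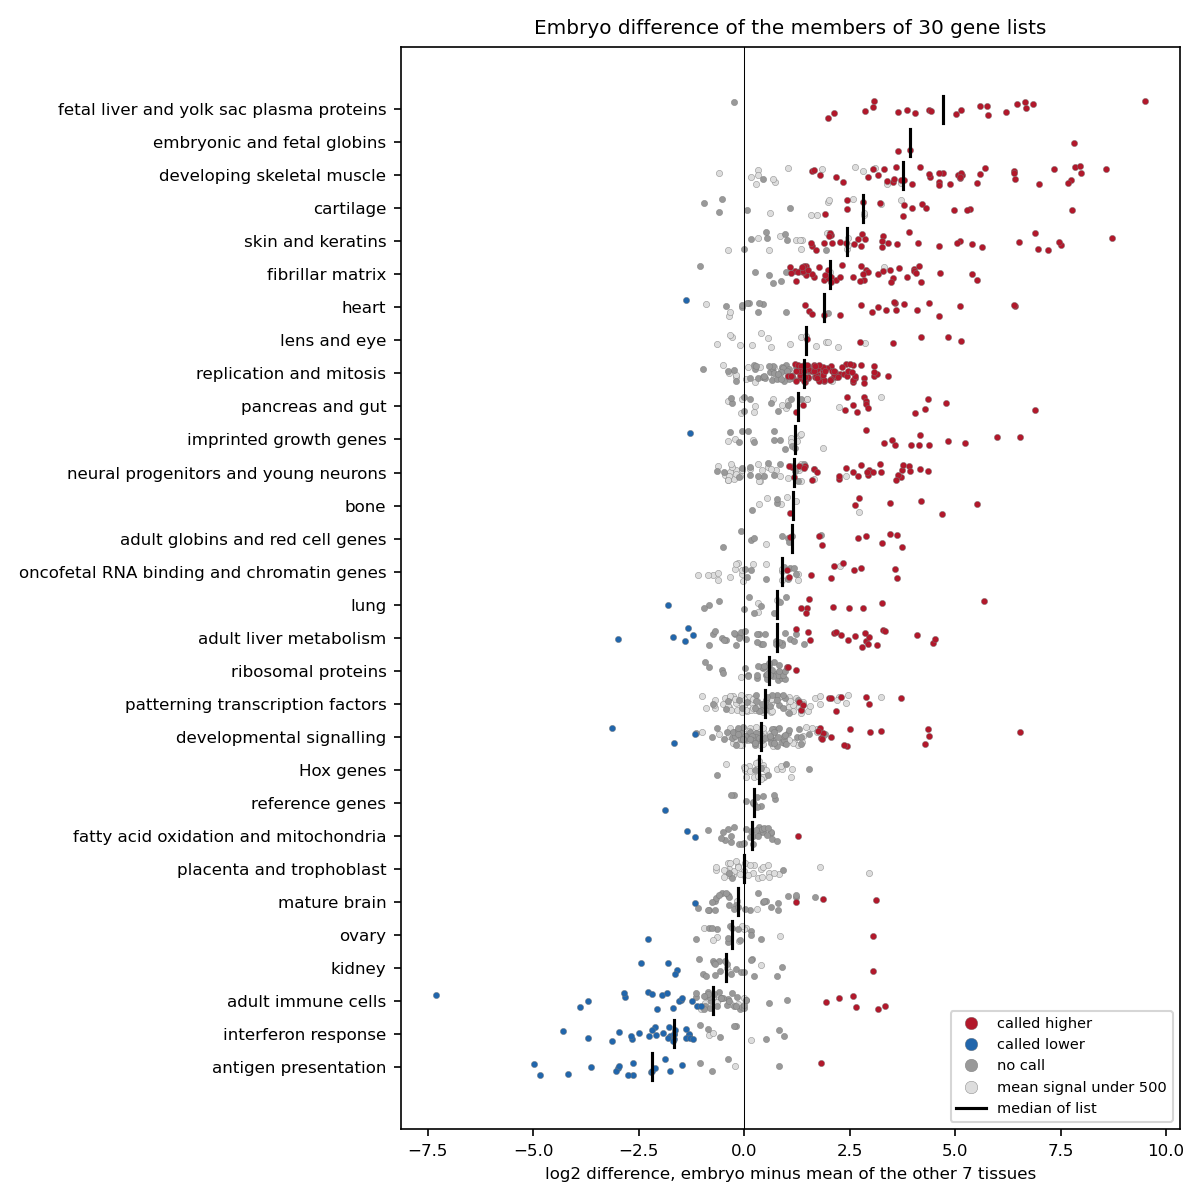
Log2 difference of the embryo from the mean of the other 7 tissues for each member of 30 gene lists, 1 point per gene, coloured by call, with a bar at the median over all members on the array. Plasma proteins (4.72), embryonic globins (3.93), developing muscle (3.76), cartilage (2.83) and skin (2.43) lie farthest right, and antigen presentation (-2.18) and interferon response (-1.65) farthest left.

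Genes of young neurons were higher in the embryo, while genes of mature nerve transmission and myelin were highest on the arrays labelled liver. Of 75 neural progenitor and young neuron genes, 44 passed, of which 30 rose and 0 fell, and with no filter 34 rose with a median of 1.19. Dcx, doublecortin of migrating neurons, had 2694 and 7283 in the embryo and 5.6, 168 and 2036 elsewhere (3.92 ± 0.54, adjusted p = 0.000325), and was higher than each tissue. Crabp1, a retinoic acid binding protein of the early hindbrain and crest, had 4637 and 7099 against at most 1968 (4.37 ± 0.49). Gap43, of growing axons, had 4383 and 13845 against up to 32410 on an array labelled liver (3.72 ± 0.44), and Tubb3, a neuronal tubulin, 4471 and 11769 against up to 22424 (3.6 ± 0.52). Ina, an early neurofilament protein, had 4944 and 7124 against up to 19822 (3.65 ± 0.29), and Fabp7, of radial glia, had 8421 and 9844 against up to 6305 (3.74 ± 0.28). The arrays labelled liver held the highest other value of all but Crabp1.

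Against the arrays labelled liver 4 of the 75 rose and 19 fell (median -0.34), and against those labelled brain 42 rose and 0 fell (median 1.85). The 30 calls against the mean were 19 without the BIIB embryo array. A single group of other tissues left 3 of the 44 called, and Gap43, Tubb3, Ina and Fabp7 were not. Of 35 mature brain genes, 33 passed, of which 3 rose and 1 fell, beside 10.3% and 5.71% of all probe sets tested. The counts were the same with no filter (median -0.14), beside 7.9% and 3.66%, and 7 rose without the arrays labelled liver. Against the arrays labelled liver 0 rose and 33 fell (median -4.19). Snap25, of synaptic vesicle fusion, had 619 and 1608 in the embryo against up to 168376 (1.22 ± 0.46, adjusted p = 0.0868), and Mobp, of myelin, had 58.6 and 283 against up to 131414 (-1.09 ± 0.49). The risers were Olfm1, Penk (8863 and 8448, 3.13 ± 0.42) and Pvalb (2221 and 2743, 1.88 ± 0.28). Penk is the enkephalin precursor, and Pvalb a calcium buffer that fast muscle also makes. Nptx1 fell (-1.16 ± 0.3), lost without the one-cycle embryo array (-0.75, adjusted p = 0.265), among other settings. Penk, Pvalb and Nptx1 lost their calls with the other tissues as 1 group.

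Imprinted growth genes were higher for a part of the list. Of 33 on the array, 24 passed, of which 12 rose and 1 fell, and with no filter 13 rose and 1 fell (median 1.21). The single lower call was lost without the BIIB embryo array, without a protocol term, without the arrays labelled liver and with the other tissues as 1 group, among other settings. Cdkn1c, a cell cycle inhibitor active from the maternal copy, had 87547 and 152812 in the embryo and 12.9, 1784 and 6934 elsewhere (6 ± 0.54, adjusted p = 1.24e-05). Dlk1, a paternally expressed Notch-like protein, had 62512 and 2264 against at most 785 (5.23 ± 0.71). Mest, also paternally expressed, had 33685 and 7970 against at most 1918 (4.38 ± 0.41), and Grb10, a brake on insulin signalling, had 40386 and 20104 against at most 6545 (3.51 ± 0.4). With Igf2, these were the 5 higher than each tissue, and the same number of members was called with the other tissues as 1 group. Dlk1 moved by 7.27 within one-cycle and by 3.18 within BIIB.

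Meg3 and Peg3 also rose. Meg3, a noncoding RNA, had 21944 and 21509 against up to 9118 (4.84 ± 0.49), and Peg3, a zinc finger protein, had 35377 and 54410 against up to 46226 (4.15 ± 0.5), which overlaps the embryo. Both lost their calls with the other tissues as 1 group (adjusted p = 0.156 and 0.358). Of 40 oncofetal RNA-binding and chromatin genes, 19 passed, of which 10 rose and 0 fell, and with no filter 9 rose (median 0.91). Of the 10 calls, 6 were left without the BIIB embryo array and 5 without a protocol term. Hmga2, a chromatin protein of growing mesenchyme, had 1688 and 4899 against at most 1038 (3.62 ± 0.42), and Igf2bp3, which binds Igf2 mRNA, had 4259 and 6271 against at most 1182 (3.57 ± 0.35). Both were higher than each tissue, and 2 of the 19 were called with the other tissues as 1 group. Genes of pluripotent cells were dim in the embryo, with 127 and 23.3 for Pou5f1, 150 and 5.2 for Nanog, and 227 and 564 for Lin28a. With no filter none of the 3 was called (-0.06, -0.02 and 1.27, adjusted p = 0.935, 0.982 and 0.133).

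Of 31 Hox genes, which set position along the body axis, 6 passed, with 0 calls, and with no filter 1 rose (median 0.36), beside 7.9% of all probe sets. Hoxa9 had 802 and 1969 in the embryo and up to 17689 in kidney (1.53 ± 0.54, adjusted p = 0.069), and Hoxd8 had 2267 and 350 against up to 8291 in kidney (0.99 ± 0.44). Of 123 patterning transcription factors, 35 passed, of which 10 rose and 0 fell, beside 10.3% and 5.71% of all tested. With no filter 22 rose (median 0.49), beside 7.9%. Of the 10 calls, 3 were left without the BIIB embryo array, 4 without the one-cycle one and 4 without a protocol term. Twist2, of dermal and bone precursors, had 3970 and 5801 against at most 896 (3.71 ± 0.48, adjusted p = 0.000203) and was the 1 member of the 35 higher than each tissue, a count of 3 of all 123 with no filter. Ebf3 had 2136 and 3282 against at most 790 (2.95 ± 0.47). Tbx15, of limb and skin patterning, missed the filter and had 1536 and 2032 against at most 251 (3.25 with no filter, adjusted p = 8.88e-05). Taking the other tissues as 1 group left 2 of the 35 called.

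Of 135 signalling genes, 78 passed, of which 15 rose and 3 fell (25 rose without lung), beside 10.3% and 5.71% of all probe sets tested. With no filter 21 rose and 3 fell, with a median of 0.39, beside 7.9% and 3.66%. The falls were thus no more frequent than among all probe sets. Sfrp2, a secreted Wnt modulator, had 7534 and 2359 against at most 1080 (3.25 ± 0.31, adjusted p = 2.1e-05). Ptn, the growth factor pleiotrophin, had 6856 and 9624 against up to 14254 on an array labelled liver (4.28 ± 0.3), and Crabp2, which delivers retinoic acid to its receptor, had 2675 and 22153 against up to 7562 in ovary (4.38 ± 0.59). The 3 that fell were Aldh1a1, Fgf1 and Bmp6. Aldh1a1, a retinoic acid making enzyme of adult tissues, had 2172 and 2398 in the embryo and 3692, 13188 and 96036 elsewhere (-3.14 ± 0.24, adjusted p = 2.89e-06), and was lower than each tissue. Fgf1 had 891 and 2534 against 742, 6339 and 12291 (-1.66 ± 0.27). With the other tissues as 1 group 3 of the 78 rose, and Ptn, Crabp2, Aldh1a1 and Fgf1 lost their calls.

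DNA replication and mitosis genes were higher in the embryo than in all tissues but spleen and, in part, ovary. Of 132 on the array, 115 passed, of which 76 rose and 0 fell, and with no filter 74 rose with a median of 1.41. Top2a, which untangles chromosomes, had 7903 and 21698 in the embryo and 39.3, 1025 and 38042 elsewhere (2.84 ± 0.27, adjusted p = 1.91e-05). Ccna2, cyclin A2, had 10618 and 6755 against 8.7, 510 and 29909 (3.09 ± 0.27), and Ube2c, which marks mitotic cyclins for destruction, had 26185 and 14853 against 243, 1273 and 54182 (3.42 ± 0.43). Plk1, a mitotic kinase, had 3213 and 6887 against up to 7540 (3.08 ± 0.49), and Rrm2, which makes DNA precursors, had 9081 and 6821 against up to 36574 (2.56 ± 0.36). Spleen held the highest array of all 5, above both embryo arrays.

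Against spleen 1 of the 132 rose and 35 fell (median -1.22), against ovary 21 rose and 0 fell (median 0.87), and against the arrays labelled brain 88 rose and 0 fell (median 2.14). None was higher than each tissue, and with the other tissues as 1 group 0 were called. The count depended on the embryo arrays, with 32 called without the BIIB one and 48 without the one-cycle one, and 33 were called without a protocol term. The window before Ube2c (chr2:164769679-164769928, plus strand) is shown because it holds 6 CCAAT letters on the 2 strands, 2 of them overlapping, between 228 and 57 bases before the start.
Ube2c: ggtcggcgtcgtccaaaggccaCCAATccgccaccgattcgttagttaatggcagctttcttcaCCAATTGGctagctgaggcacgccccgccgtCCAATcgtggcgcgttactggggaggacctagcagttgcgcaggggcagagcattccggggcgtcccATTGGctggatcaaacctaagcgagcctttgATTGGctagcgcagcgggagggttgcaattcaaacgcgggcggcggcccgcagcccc
CCAAT on either strand was in 71 of 119 windows of the 105 replication and mitosis genes with one (59.7%), beside 33.8% of all windows, and TTTGAA, the core of the cell cycle homology region, was in 29 of 119 (24.4%), beside 16%.

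Genes of pancreas and gut rose in the embryo against the mean of the 7 tissues, with single tissues differing. Of 38 on the array, 25 passed, of which 15 rose and 0 fell, and with no filter 17 rose with a median of 1.29. Fabp2, the fatty acid carrier of the intestine, had 23513 and 76741 in the embryo and 10.1, 44 and 71048 elsewhere (6.89 ± 0.5, adjusted p = 2e-06). Tff3, a mucus peptide of gut goblet cells, had 7141 and 10803 against at most 1950 (4.78 ± 0.45) and was higher than each tissue. Ctrb1 had 56509 and 33001 against up to 162406 (4.36 ± 0.37), and the elastase Cela3b had 21703 and 33212 against up to 142604 (2.9 ± 0.32), both highest on the one-cycle array labelled brain. The spleen arrays were above both embryo arrays too, with 109480 and 78039 for Ctrb1 and 55392 and 60228 for Cela3b. Against the arrays labelled brain 7 of the 38 rose and 13 fell (median 0.07), against spleen 12 rose and 9 fell (median 0.48), and against ovary 21 rose and 0 fell (median 2.04). A single group of other tissues left 1 of the 25 called, and Fabp2, Ctrb1 and Cela3b were not.

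Lung, kidney and ovary genes were each low in the embryo beside their own organ. Of 23 lung genes, 20 passed, of which 9 rose and 1 fell (6 and 1 with no filter, median 0.79), with 5 higher without the 4 arrays labelled brain and liver or without a protocol term, and against lung 0 rose and 19 fell (median -3.61). Sftpc, the surfactant protein of alveolar cells, had 39436 and 74973 in the embryo and 22.6, 273 and 654893 elsewhere (5.69 ± 0.44, adjusted p = 3.52e-06). The other tested probe set of Sftpc differed by less, at 2.04. Scgb1a1, of club cells in the airway, had 4939 and 2511 against up to 314725 (2.48 ± 0.33). For both genes lung alone among the 7 tissues was higher than the embryo, and both calls were lost with the other tissues as 1 group.

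Of 28 kidney genes, 25 passed, of which 1 rose and 4 fell, beside 10.3% and 5.71% of all probe sets tested. The counts were the same with no filter (median -0.42), and against kidney 0 rose and 26 fell (median -6.03). The riser was Cubn, cubilin, a receptor of kidney tubule and yolk sac, with 2092 and 3828 against up to 32659 in kidney (3.06 ± 0.33). Those that fell were Cyp4b1 (-2.45 ± 0.38), Kap (-1.59 ± 0.31), Napsa (-1.81 ± 0.26) and Slc7a13. The Kap call was lost without the BIIB embryo array (-1.53, adjusted p = 0.0806) and the Napsa call without kidney (-0.97, adjusted p = 0.0262), and those of Cyp4b1 and Napsa without a protocol term (adjusted p = 0.0501 and 0.0576). The count of 4 was 2 without the BIIB embryo array, 1 without kidney, 7 without lung and 8 without the 4 arrays labelled brain and liver. Umod, of the thick ascending limb, had 280 and 137 against up to 99957 in kidney (-0.44 ± 0.33). Of 23 ovary genes, 15 passed, of which 1 rose (Hsd3b1) and 1 fell (Akr1c18, -2.28 ± 0.37), beside 10.3% and 5.71% of all tested. Against ovary 0 rose and 19 fell (median -4.41). Akr1c18 was not called without ovary (-1.08, adjusted p = 0.0645), and neither Kap nor Akr1c18 with a pseudocount of 16 (adjusted p = 0.0913 and 0.0634). Cubn, Cyp4b1, Kap, Napsa and Akr1c18 lost their calls with the other tissues as 1 group.

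Of 37 placental genes on the array, 3 passed with 0 calls, and with no filter 2 rose, beside 7.9% of all probe sets, with a median of -0.01. Tpbpa, of trophoblast, had 35.9 and 8.8 in the embryo and up to 321 elsewhere, and Plac1 had 428 and 270 against up to 555. Rhox5, a homeobox gene of extraembryonic lineages and testis, was 1 of the 2 risers, with 1243 and 2811 against 17.4, 83.3 and 1078 (2.97 with no filter, adjusted p = 0.000217).

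Genes of general upkeep are given beside the 10.3% and 5.71% called of all probe sets tested. Of 13 reference genes 0 rose and 1, B2m, fell (median 0.24), and Actb (0.22 ± 0.35), Eef1a1 (0.24 ± 0.22) and Tbp (0.46 ± 0.38) had no call. Of 41 ribosomal protein genes 40 passed, of which 3 rose, Rpl14, Rps19 and Rps26, and 0 fell (median 0.58), with 1 higher without the BIIB embryo array, without the arrays labelled brain or without kidney, and 7 without spleen. Of 32 genes of fatty acid oxidation 1 rose, Acaa2 (1.28 ± 0.23), and 2 fell, Cat and Cpt1a (-1.36 ± 0.23, not called without the BIIB embryo array, adjusted p = 0.0512), with a median of 0.19. Against heart 0 of the 32 rose and 20 fell (median -1.91). Acaa2 was under 2-fold without the arrays labelled liver (0.93), and Acaa2 and Cpt1a lost their calls without a protocol term and with the other tissues as 1 group.

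**Figure D3:**
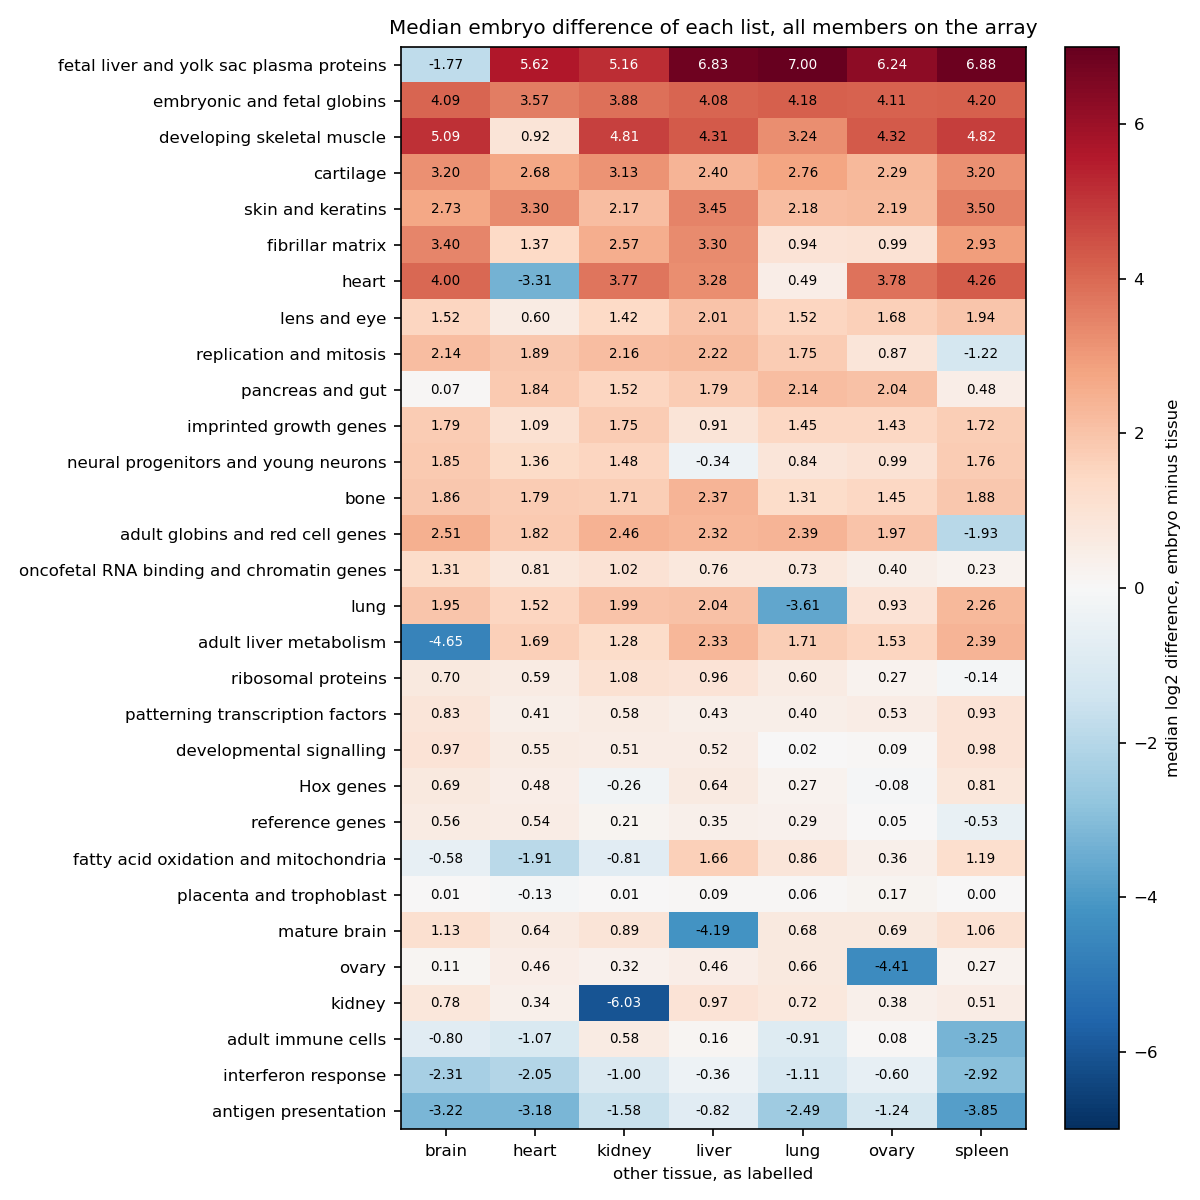
Median log2 difference of the embryo from each of the 7 other tissues (columns, as labelled) over all members on the array of 30 gene lists (rows), on a colour scale centred on 0. Each organ's own list is lowest against that organ, with kidney genes at -6.03 against kidney and adult liver genes at -4.65 against the arrays labelled brain, and antigen presentation is below 0 against all 7.

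The comparisons with single tissues share the embryo arrays, so their counts are set side by side and not combined. Antigen presentation was the list with the lowest median in the embryo. Of 22 genes on the array, 21 passed, of which 1 rose and 16 fell, the same as with no filter (median -2.18). Among class II molecules, which show peptides to helper T cells, H2-Aa had 976 and 256 in the embryo and 1341, 17975 and 114152 elsewhere (-4.84 ± 0.32, adjusted p = 1.01e-06). H2-Eb1 had 728 and 9.4 against 2170, 12799 and 52106 (-4.97 ± 0.4), and H2-DMa, which loads their peptides, had 181 and 101 against 876, 3824 and 11485 (-3.63 ± 0.25). H2-Ab1 had 505 and 2120 against 2314, 12233 and 43288 (-2.99 ± 0.35). Both embryo arrays lay below all 14 others for these 4 genes. H2-Ea, which is outside the list, had 68.4 and 31.4 against 697, 5105 and 21278 (-4.59 ± 0.28). Ciita, the activator of class II genes, missed the filter, with 532 and 153 against 45.6, 353 and 1418, and was not called (-0.22).

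Class I molecules, which nearly all adult cells carry, were lower too. H2-K1 had 10605 and 2608 in the embryo and 4536, 49929 and 167245 elsewhere (-3.04 ± 0.29, adjusted p = 1.84e-05), overlapping at the low end. H2-D1 had 9588 and 10069 against 19197, 58287 and 190388 (-2.63 ± 0.28), and H2-M3 had 251 and 622 against 1103, 3553 and 8836 (-2.62 ± 0.35). Their shared light chain B2m had 24137 and 18592 against 24694, 95847 and 178872 (-1.88 ± 0.34, adjusted p = 0.00216), a call lost without the BIIB embryo array (-1.71, adjusted p = 0.0653). The probe sets of H2-K1, H2-D1 and H2-Aa can bind related class I or II transcripts, so each stands for a family.

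The machinery that supplies peptides to class I went the same way. The immunoproteasome subunits Psmb9 and Psmb8 had 671 and 874, and 755 and 2163, in the embryo. The other arrays ran from 1772 to 24186 for Psmb9 (-2.96 ± 0.28) and from 1956 to 48193 for Psmb8 (-2.74 ± 0.28). Tap1, the peptide transporter, had 622 and 239 against 614, 1895 and 7455 (-2.17 ± 0.32). The riser was H2-Q10, a class I molecule that liver secretes, with 3275 and 3667 against 23.6, 437 and 101054 on the one-cycle array labelled brain (1.82 ± 0.41), a call lost without either embryo array (adjusted p = 0.146 and 0.0563).

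The size of the gap depended on the tissue. Against spleen 1 of the 22 antigen presentation genes rose and 21 fell (median -3.85), against heart 2 and 17 (median -3.18), and against the arrays labelled brain 0 and 17 (median -3.22). Against the arrays labelled liver, whose markers are those of brain, 2 rose and 8 fell (median -0.82), and against ovary 2 and 9 (median -1.24). Lower than each tissue were 6 of the 21 that passed, or 5 of all 22 with no filter. With the other tissues as 1 group 4 fell, and H2-Ab1, H2-D1, H2-K1, H2-M3, B2m, Psmb8, Psmb9, Tap1 and H2-Q10 lost their calls.

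**Figure D4:**
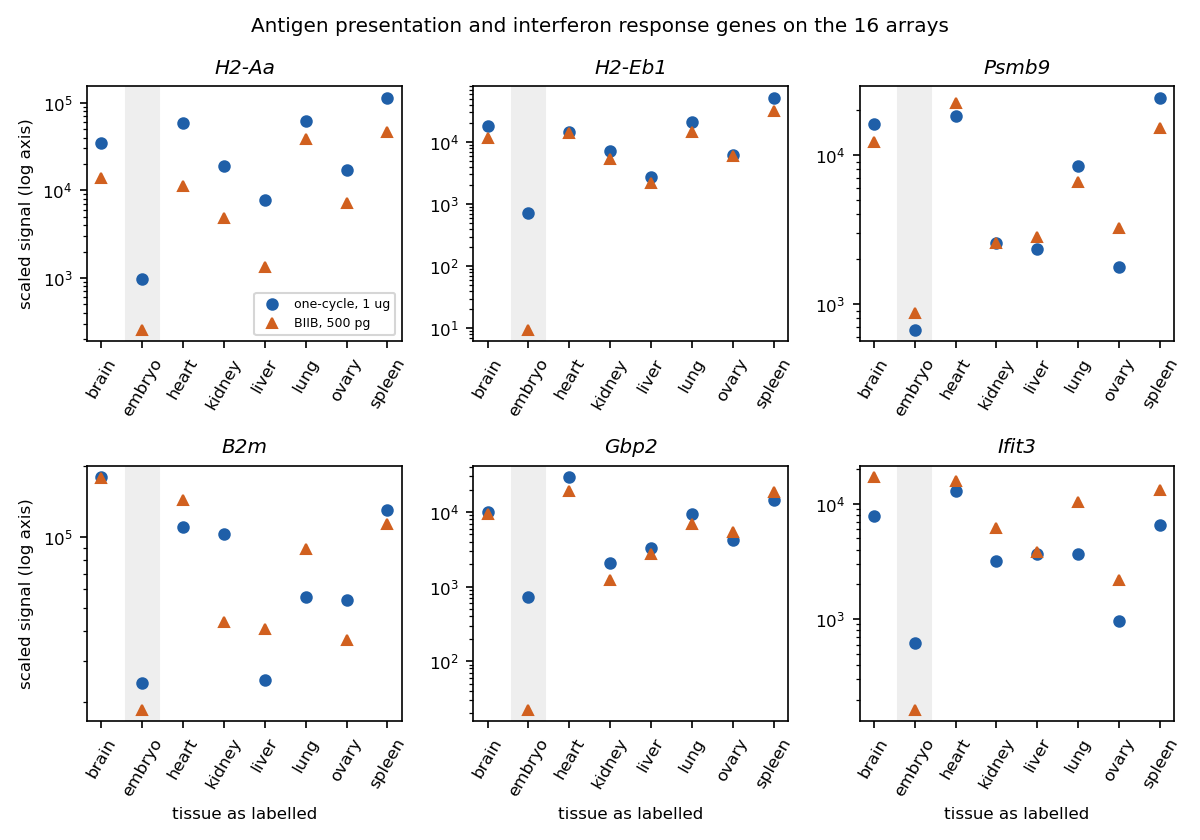
Scaled signal (log axis) of H2-Aa, H2-Eb1, Psmb9, B2m, Gbp2 and Ifit3 on the 16 arrays by tissue as labelled, 1 point per array with the protocol marked, and the embryo shaded. Both embryo arrays lie below all 14 others in each panel, by the narrowest margin for B2m, at 24137 and 18592 against 24694.

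More immune cell genes fell than rose. Of 64 immune cell genes on the array, 56 passed, of which 6 rose and 17 fell, beside 10.3% and 5.71% of all probe sets tested. With no filter the counts were the same (median -0.73), beside 7.9% and 3.66%. The lower calls were 10 without either embryo array in turn, 11 without spleen and 8 without a protocol term. Igha, the IgA heavy chain, had 66.4 and 104 in the embryo and 6831, 30988 and 171414 elsewhere, the largest fall among the non-overlapping calls (-7.29 ± 0.23, adjusted p = 1.73e-08). Jchain, which links IgA and IgM, had 257 and 30.3 against 692, 3216 and 65705 (-3.88 ± 0.27), and Ighm had 548 and 289 against 119, 4905 and 423526 (-3.69 ± 0.46). Igkv8-30, a light chain segment outside the list, differed by -4.46 ± 0.26, and the T cell gene Ms4a4b by -2.97 ± 0.37. The Igha and Igkv8-30 probe sets can bind other immunoglobulin transcripts.

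Of the 6 risers, Ngp had 28135 and 6872 against 9.2, 785 and 171292 (3.35 ± 0.4), Mpo 7215 and 8497 against up to 107156 (3.18 ± 0.39), Camp 5269 and 3224 against up to 92335 (2.65 ± 0.39) and S100a9 24798 and 14994 against up to 192385 (2.26 ± 0.31). The other two were Ltf and S100a8. Each of the 4 was highest in spleen. The macrophage receptor Csf1r was not called (-0.59 ± 0.27, adjusted p = 0.152). Against spleen 0 of the 64 rose and 60 fell (median -3.25), and against kidney 15 rose and 4 fell (median 0.58). With the other tissues as 1 group 0 rose and 1 fell, and Jchain, Ighm, Ms4a4b, Ngp, Mpo, Camp and S100a9 lost their calls.

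Of 37 interferon response genes on the array, 34 passed, of which 26 fell and 0 rose (14 fell without a protocol term), and with no filter 25 fell and 0 rose with a median of -1.65. Gbp2, an interferon-induced GTPase, had 729 and 22.4 in the embryo and 1236, 8133 and 29049 elsewhere (-4.3 ± 0.43, adjusted p = 2.57e-05). Ifit3, which binds foreign RNA, had 621 and 164 against 959, 6345 and 16873 (-3.69 ± 0.42). Gbp3 had 200 and 249 against 547, 1478 and 7134 (-2.49 ± 0.33), and Gbp6, outside the list, had 196 and 154 against 377, 3140 and 28860 (-3.33 ± 0.22). Both embryo arrays lay below all others for these 4 genes. Ifi47 (-2.66 ± 0.37), the chemokine Cxcl9 (-3.13 ± 0.45) and the transcription factor Irf1 (-1.38 ± 0.24) fell as well. Isg20 and Rsad2 were above 0 with no call (0.94 ± 0.27 and 0.83 ± 0.26).

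Against spleen 0 of the 37 interferon genes rose and 34 fell (median -2.92), and against heart 0 and 26 (median -2.05). Against the arrays labelled liver 3 rose and 6 fell (median -0.36), beside 11.9% and 9.76% of all probe sets. With the other tissues as 1 group 2 fell, and Gbp3, Gbp6, Ifi47, Cxcl9 and Irf1 lost their calls. Spleen marker sums were 1805 and 327 in the embryo and 151 to 13017 on the other arrays outside spleen, and the part of immune cells in these falls was not tested. Among genes outside the lists, Ephx1, an epoxide hydrolase (-2.91 ± 0.44), and the chemokine Ccl8 (-2.52 ± 0.34) were below each tissue, calls lost with the other tissues as 1 group.

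The windows before H2-Aa (chr17:34287824-34288073, minus strand), Gbp2 (chr3:142620413-142620662, plus strand) and Ifit3 (chr19:34583279-34583528, plus strand) are shown as the class II and interferon genes with large falls. Capitals mark ATTGG, which is CCAAT on the other strand, in H2-Aa, 48 bases before the start. In Gbp2 and Ifit3 they mark a pair of GAAA with any 2 bases between, read on the other strand, the core of the interferon-stimulated response element, 59 bases before the start of Gbp2 and 156 and 122 before that of Ifit3.
H2-Aa: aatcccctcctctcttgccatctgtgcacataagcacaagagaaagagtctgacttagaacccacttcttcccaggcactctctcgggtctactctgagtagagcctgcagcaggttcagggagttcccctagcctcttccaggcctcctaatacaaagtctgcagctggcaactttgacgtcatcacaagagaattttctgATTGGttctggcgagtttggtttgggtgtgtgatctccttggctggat
Gbp2: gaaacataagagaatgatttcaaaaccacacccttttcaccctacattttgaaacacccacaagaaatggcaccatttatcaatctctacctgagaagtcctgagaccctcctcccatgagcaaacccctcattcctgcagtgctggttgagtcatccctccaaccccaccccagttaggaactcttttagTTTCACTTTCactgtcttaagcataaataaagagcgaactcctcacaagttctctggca
Ifit3: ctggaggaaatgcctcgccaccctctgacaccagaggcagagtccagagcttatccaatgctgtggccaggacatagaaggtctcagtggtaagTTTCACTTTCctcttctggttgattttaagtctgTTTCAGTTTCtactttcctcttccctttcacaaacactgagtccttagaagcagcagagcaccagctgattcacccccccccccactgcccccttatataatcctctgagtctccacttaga
The GAAA pair on either strand was in 15 of 37 windows of the 29 interferon genes with one (40.5%), beside 2.98% of all windows, and in 2 of 20 windows of the 18 antigen presentation genes with one (10%). CCAAT was in 13 of those 20 (65%), beside 33.8% of all.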

How the data were processed

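Values were linear MAS5 signal intensities as deposited by the authors, MAS5 being named in the submitters' processing notes. Its version is not given in the sources used here. No detection calls were used. Arrays were brought to a shared trimmed mean of 2501 (2% left out at each end). In limma 3.58.1 (R 4.3.3), log2(signal + a pseudocount of 5% of that mean) was fitted with 1 coefficient per tissue plus protocol over 16 arrays, after leaving out 64 control probe sets and those with a mean under 500 (7 residual and 4.71 prior degrees of freedom). The script was tested on simulated data. Of 22690 probe sets 20393 had 1 gene symbol in the platform annotation, and a gene is given by its brightest probe set. Named genes are members of 31 gene lists and the 20 largest non-overlapping calls each way. Genes named only in the closing observations were picked by their values. Members and lists were chosen with earlier results of these data known. Promoter windows of 250 bases and their letters came from RefSeq (GRCm38.p6), with 27025 genes matched by symbol to the table. The number of arrays limits the precision.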

Additional observations from a re-analysis of the deposited data

Results flagged for a closer look

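At its brightest probe set the adult beta globin Hbb-b2 moved in opposite directions on the 2 protocols, and this difference was not tested. Its signal in the embryo was 20.7 on the one-cycle array and 15139 on the BIIB array. Within one-cycle the embryo differed from the mean of the other 7 tissues by -1.55, and within BIIB by 1.41, both on the log2 scale. Over both protocols this probe set was not called in limma (-0.07 ± 0.72, adjusted p = 0.962). The other tested probe set of Hbb-b2 differed by 1.23 over both protocols. The other one-cycle arrays ran from 38.2, in spleen, to 682, dim signals whose order is uncertain. The other BIIB arrays ran from 2937 to 11838.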

How the results depend on the processing

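The 1566 higher and 867 lower calls against the mean moved most when the other 7 tissues were 1 group, to 154 and 20, a fit whose spread holds the differences between tissues. The 169 higher and 41 lower against each tissue have no value there. Without the protocol term the 4 counts were 804, 243, 111 and 11. With a pseudocount of 500, 552 fell. Without the 4 arrays labelled brain and liver, 316 and 65 were called against each tissue left. Leaving out 1 embryo array, or both arrays of another tissue, gave 785 to 1648 higher, 291 to 1004 lower, 112 to 245 higher against each tissue and 28 to 91 lower against each tissue. The lowest count of higher calls, 785, came without embryo replicate 1 (BIIB), where 291 fell and 112 were higher against each tissue. Without embryo replicate 2 (one-cycle) 1043 rose, 802 fell, 124 were higher and 91 lower against each tissue, and without spleen 63 were. Under quantile normalization 1428 rose and 1189 fell, the median difference over all went from 0.04 to -0.06, and the 165 tested genes followed by name kept their direction and their side of the threshold. Of these 165 genes, 76 lost their call with the other tissues as 1 group. Not all 165 were tested in the fit without embryo replicate 1, so no count of them is given there. Tnni3 changed from -0.06 to 1.16 without heart (adjusted p = 0.0388), and to -1.23 without the 4 arrays labelled brain and liver (adjusted p = 0.0442). No paired analysis was possible because, beyond the protocol that joins arrays across tissues and is already a term of the fit, the labels give the tissue arrays no replicate numbers. With 1 RNA per tissue and no detection calls, signals near the bottom of the range have no order.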

Other observations

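Genes outside the lists that were higher in the embryo than in each of the 7 tissues also named other organs and cells. These were picked after their values were seen, from the 55 such genes, and the values are a description. Ucp1, the uncoupling protein of brown fat, had 12025 and 26776 in the embryo (one-cycle and BIIB) and at most 1263 on the other 14 arrays (5.55 ± 0.28). The mast cell protease Cma1 had 19916 and 29610 against at most 1285 (5.76 ± 0.35). Cpa3, the carboxypeptidase of mast cell granules, had 15549 and 12171 against at most 1129 (5.58 ± 0.43), and the tryptase Tpsab1 had 4889 and 922 against at most 705 (3.03 ± 0.41). All 3 mast cell enzymes lay above every other array.

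Of digestive genes, Lct, the milk sugar enzyme of the intestine, had 2967 and 5276 against at most 269 (4.02 ± 0.41). Pga5, a pepsinogen of the stomach, had 9992 and 9474 against at most 703 (4.92 ± 0.34). Bpifa2, a salivary protein, had 27290 and 15405 against at most 211 (6.64 ± 0.33). Agtr2, the angiotensin receptor of fetal tissues, had 3620 and 3760 against at most 557 (3.95 ± 0.35). Stomach, intestine, salivary gland and brown fat were not among the 7 tissues compared, so these values do not show that the genes are particular to the embryo.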
